A study of Homo sapiens with 9 samples.

Results

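The genes described here are 34 that encode the proteins of chromosomal DNA replication, from the origin recognition subunit ORC1 to the chromatin assembly factor CHAF1A. They were chosen by name: every probe set whose only gene symbol in the platform annotation was 1 of the 34 names was taken, which gave 64 of the 54675 probe sets on the array and 34 of the 19775 genes measured. All 34 were measured, and no filter on low values was applied. RNA had been read on 9 single-colour Affymetrix arrays from the established human line P493-6, which consists of B lymphocytes: 4 of cells labelled high Myc, 3 labelled low Myc and 2 labelled no Myc. The cells carry, as background knowledge of the line, a MYC gene that tetracycline switches off. The labels give the Myc level, the cell line and the cell type for each array, and no drug, time or culture, so the 3 groups are 1 line at 3 labelled Myc levels. Whether the replicates are separate cultures is not stated. A p-value here is therefore set by the spread among arrays, some of which may be technical.

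Replication begins in G1 phase, when the origin recognition complex, CDC6 and CDT1 load the MCM ring, made of MCM2 to MCM7, onto DNA. In S phase CDC45 and the GINS complex join the ring and turn it into the working helicase, primase and polymerase alpha lay down primers, and polymerases delta and epsilon extend them, held to DNA by the PCNA clamp that the RFC complex loads. Transcription of many of these genes rises as cells enter S phase under E2F transcription factors, and MYC is known for driving resting B cells into the cell cycle.

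MYC itself (Entrez 4609) read 12755, 11326, 15404 and 12186 intensity units on the high Myc arrays, 2126, 2526 and 1443 on the low Myc arrays, and 2803 and 416 on the no Myc arrays. For the gene that the labels are about, the library labelled no Myc replicate 1 thus exceeded all 3 low Myc arrays, and the results against no Myc are also given without it. Group names below are those of the labels and do not state the MYC level of each library. The log2 difference in MYC was 3.57 ± 0.60 (SE) for high over no Myc (11.9-fold, limma adjusted p = 0.00252), 0.87 ± 0.64 for low over no Myc (adjusted p = 0.484; 2.25 and adjusted p = 0.00843 without that library), and 2.70 ± 0.53 for high over low Myc (6.49-fold, adjusted p = 0.0321). The last of these missed the threshold when replicate 1, 3 or 4 of high Myc, or replicate 1 or 3 of low Myc, was left out, with adjusted p-values up to 0.0988. Intensities are comparable between arrays for 1 probe set but not between probe sets. Array distributions had been equalised before probes were summarised, and the medians of the deposited values lay between 75.3 and 80.3 intensity units. A difference is therefore read relative to the rest of the array, and a change in total RNA could not be seen.

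Most of the 34 replication genes were higher in the high and low Myc groups than in the no Myc group. With high Myc, 29 of the 34 genes rose against no Myc at a limma adjusted p under 0.05, 0 fell and 5 did not pass, where 14.2% of all genes rose and 9% fell. With low Myc, 30 of 34 rose against no Myc, 0 fell and 4 did not pass, where 11.3% of all genes rose and 8.55% fell. The median log2 difference of the 34 genes was 1.38 (2.59-fold) for high over no Myc and 1.32 (2.50-fold) for low over no Myc, beside medians of -0.01 and 0.00 over all genes. All 34 differences were above 0 in both comparisons, as were 9388 (high Myc) and 9813 (low Myc) of all 19775 genes. A rise of at least 2-fold was called for 25 members in each, and for 1499 and 1098 of all genes. Both comparisons share the no Myc arrays and are therefore not independent of each other.

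The arrays show the same thing without a test. The 4 high Myc arrays all lay above both no Myc arrays for 32 of the 34 genes, as they did for 20.6% of all genes. The 3 low Myc arrays all lay above both no Myc arrays for 33 of the 34, against 20% of all genes. The no Myc group had the lowest mean of the 3 groups for 34 of 34 members and for 38.3% of all genes. In these bulk samples, fewer cells in a given phase of the cell cycle and less RNA per cell cannot be told apart.

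**Figure D1:**
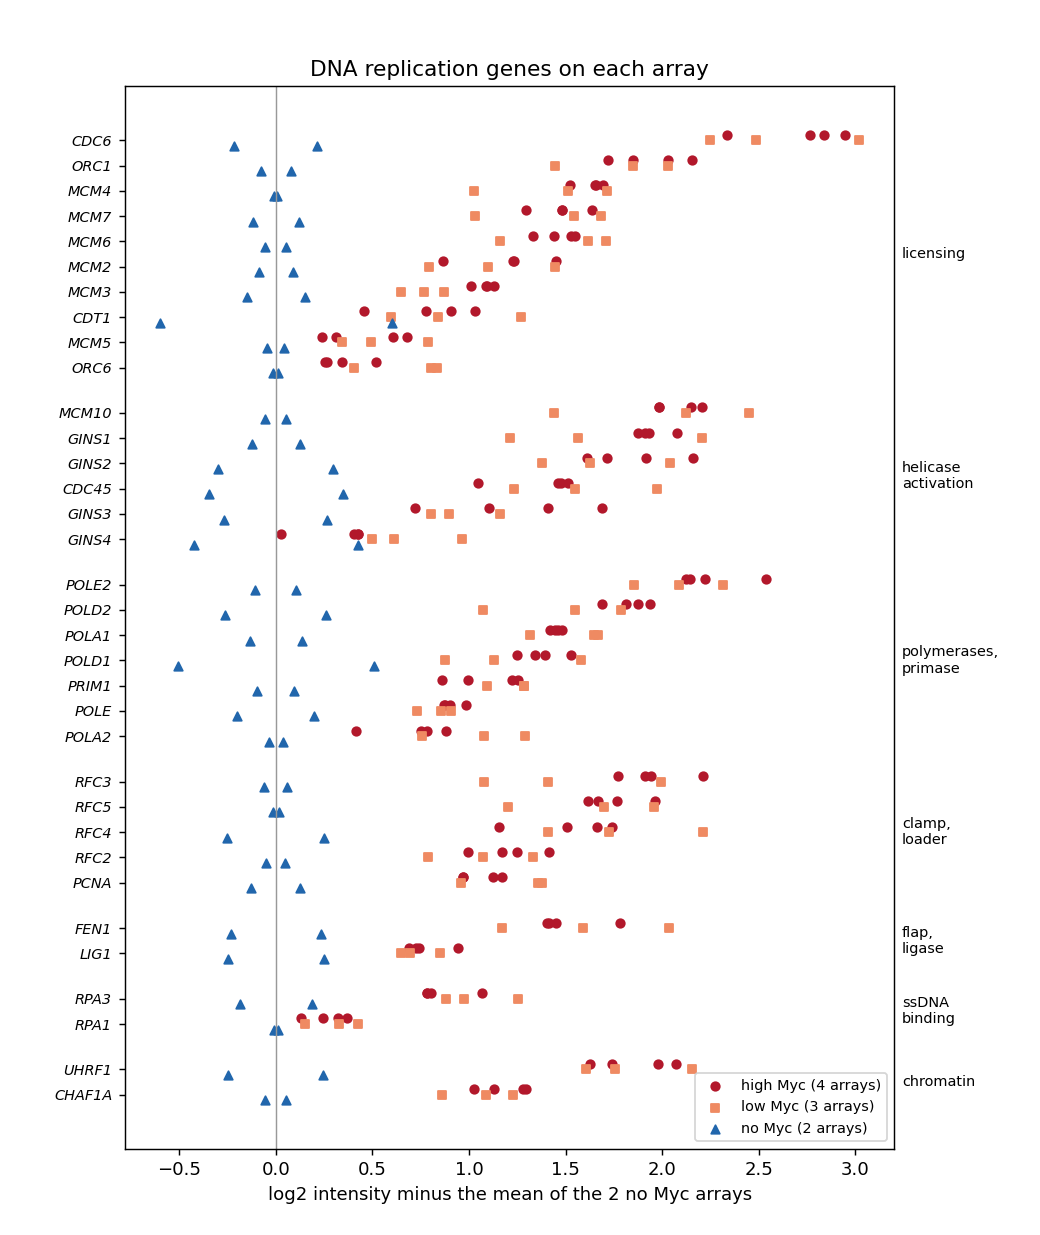
Each point is 1 array's log2 intensity for a replication gene minus the mean of the 2 no Myc arrays (horizontal axis, log2 units), with genes ordered by role down the page and circles for high Myc, squares for low Myc and triangles for no Myc. High and low Myc points lie to the right of both no Myc points for most genes, and the exceptions are GINS4 and CDT1.

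Between high and low Myc no member was called, and few genes of the whole array were. At an adjusted p under 0.05 in limma, 0 of 34 genes rose and 0 fell in high against low Myc. Of all genes, 3.6% were called in either direction, so a count of 0 among 34 members lies near the share of the array. An unadjusted limma p under 0.05 was found for 3 members, and for 3253 of all 19775 genes. Of the 34 differences, 20 were above 0 and 14 below, with a median of 0.07 and a range of -0.37 to 0.46. The 95% interval of the difference lay inside 2-fold in either direction for all 34 members, as it did for 17867 of 19775 genes. Differences smaller than 2-fold remain possible for these genes. The interval excluded 0 for MCM3 (0.094 to 0.54), RFC3 (0.012 to 0.92) and ORC6 (-0.61 to -0.057), though none of these passed after adjustment. On these arrays MYC differed 6.49-fold, and whether the members stood apart from other genes in this comparison was not tested.

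**Figure D2:**
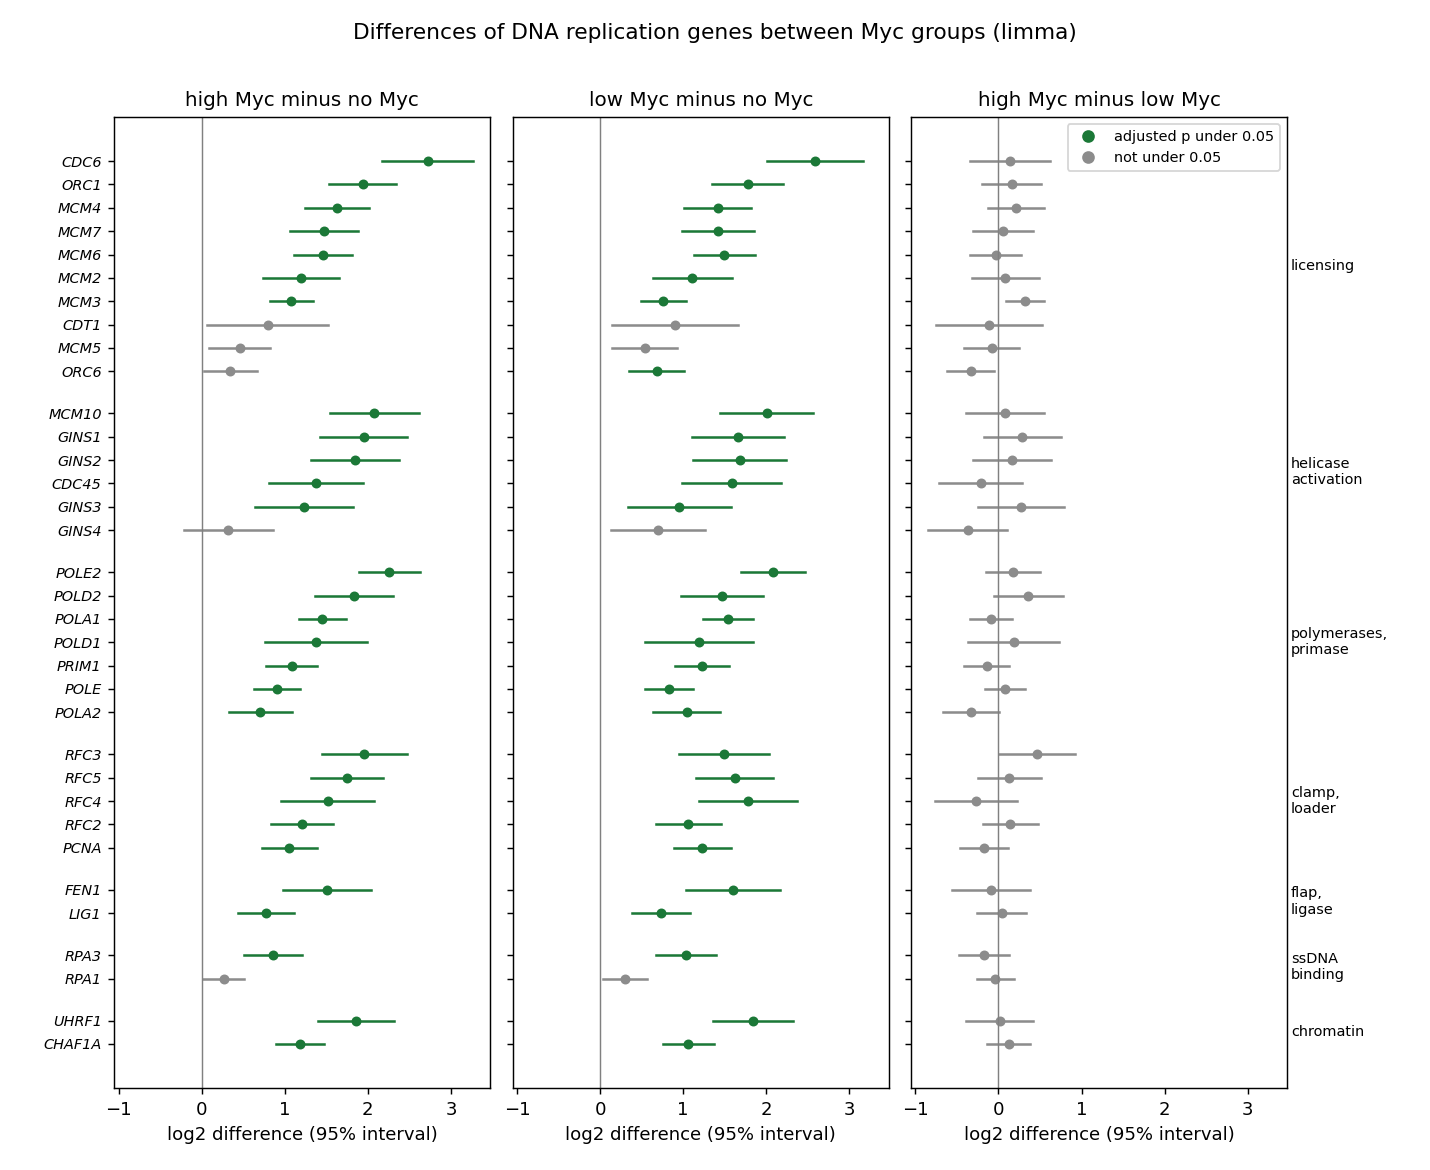
Points are limma log2 differences and lines their 95% intervals for the 34 genes in the 3 comparisons (horizontal axes, log2 units), coloured by whether the adjusted p was under 0.05. The first 2 panels hold 29 and 30 called genes, all to the right of 0, and the third holds none.

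**Figure D3:**
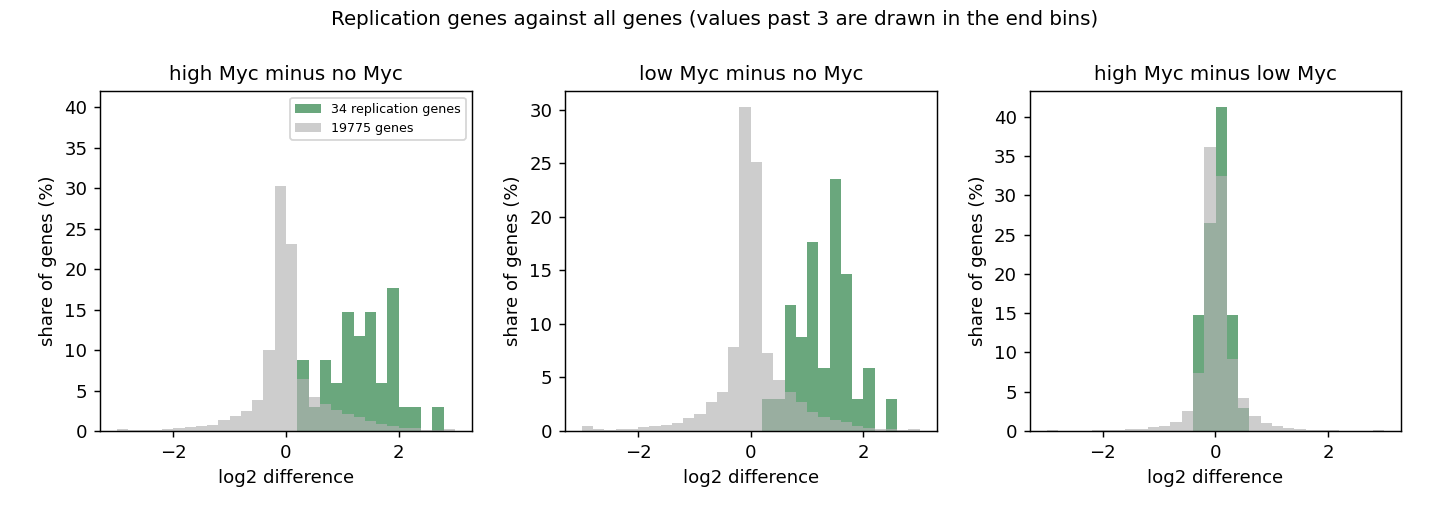
Histograms give the share of genes (vertical axes, percent) in bins of the log2 difference (horizontal axes) for the 34 replication genes and for all 19775 genes. The replication genes have medians of 1.38 and 1.32 in the comparisons with no Myc, and of 0.07 between high and low Myc, where they overlie the other genes.

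Promoter sequences are shown for 6 members, since these genes moved together and many are known E2F targets. RefSeq windows (GRCh38.p14) from 250 bases before to 50 bases after each gene's start were matched for 30 of the 34 members by symbol, with the same gene identifier in all 30; MCM4, MCM5, GINS4 and RPA3 were not matched. The E2F letters searched on both strands were TTCCCGC or TTGGCGC or TTCGCGC or TTGCCGC, which can overlap on opposite strands. The 6 are the matched members with such letters that had the highest mean difference against no Myc. Each is printed 5′ to 3′ on the gene's strand, with the match in capitals (in ORC1 a pair of matches that overlap on opposite strands), for CDC6 (chr17:40287847-40287908, plus strand), POLE2 (chr14:49688185-49688259, minus), ORC1 (chr1:52404396-52404485, minus), UHRF1 (chr19:4909357-4909530, plus), GINS1 (chr20:25407638-25407702, plus) and GINS2 (chr16:85688939-85689025, minus).
CDC6: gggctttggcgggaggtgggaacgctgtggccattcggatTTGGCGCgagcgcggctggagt
POLE2: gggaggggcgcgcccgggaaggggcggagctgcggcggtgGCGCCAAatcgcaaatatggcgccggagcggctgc
ORC1: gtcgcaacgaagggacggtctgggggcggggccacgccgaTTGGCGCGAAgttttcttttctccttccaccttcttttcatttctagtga
UHRF1: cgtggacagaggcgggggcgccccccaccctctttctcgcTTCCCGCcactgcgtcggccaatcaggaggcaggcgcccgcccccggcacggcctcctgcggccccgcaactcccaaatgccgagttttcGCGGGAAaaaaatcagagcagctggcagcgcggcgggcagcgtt
GINS1: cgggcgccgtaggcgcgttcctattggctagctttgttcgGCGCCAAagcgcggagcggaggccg
GINS2: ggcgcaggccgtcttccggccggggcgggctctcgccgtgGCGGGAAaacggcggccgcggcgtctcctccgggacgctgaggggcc

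Such E2F letters stood in 24 of the 30 matched members (80%), against 15.3% of the 27305 genes with a window and 20.4% of those measured on the array. MCM10, CDC45, ORC6, POLD1, POLD2 and FEN1 had none in their windows. The mean of a member's 2 differences against no Myc had a median of 1.30 in log2 units for the 24 with a match. That median was 1.52 for the 6 without, and the difference between these sets was not tested. The E-box letters CACGTG, which MYC is known to bind, stood in 5 of 30 members (16.7%): MCM2, MCM7, FEN1, RPA1 and CHAF1A. They stood in 8.77% of all genes with a window, 10.9% of those measured and 14.8% of matched mitosis genes. The CCAAT box stood in 19 of 30 members (63.3%). Its shares in the same 3 sets were 39.7%, 41.7% and 81.5%. The letters TTTGAA or TTCGAA of the cell cycle homology region are known from promoters of mitosis genes. They stood in 1 of 30 members (3.33%) and in 20 of 27 matched mitosis genes (74.1%). The share was 19.5% of all genes with a window and 17.2% of those measured. These are descriptions of letters in a window and not of binding.

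Of the 10 genes of origin recognition and licensing, 7 rose with high Myc and 8 with low Myc, with median differences of 1.33 and 1.26 on the log2 scale. CDC6 (990), the loader that brings the MCM ring to the origin complex, had the largest difference of all 34. It read 809.9, 1087, 1234 and 1145 with high Myc, 898, 1300.0 and 761 with low Myc, and 138 and 186 with no Myc. Every high and low Myc array lay far above both no Myc arrays. The log2 difference was 2.72 ± 0.24 for high over no Myc (6.59-fold, adjusted p = 0.00016) and 2.58 ± 0.25 for low over no Myc (6.00-fold, adjusted p = 0.000462). ORC1 (4998), an ATPase subunit of the origin recognition complex, read 141, 155, 192 and 175 with high Myc, 155, 176 and 117 with low Myc, and 40.8 and 45.3 with no Myc. Its high and low Myc arrays did not overlap the no Myc arrays, and its differences were 1.94 ± 0.18 (3.83-fold, adjusted p = 0.00018) for high and 1.78 ± 0.19 (3.42-fold, adjusted p = 0.000584) for low over no Myc.

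The 6 subunits of the MCM ring were all higher on average in high and low Myc than in no Myc, and 5 of them passed in both comparisons. MCM4 (4173) read 2451, 2236, 2447 and 2515 with high Myc, 2219.5, 2548 and 1582 with low Myc, and 782 and 774 with no Myc, a 3.10-fold and a 2.67-fold difference from no Myc. MCM6 (4175) was 2.75-fold and 2.82-fold higher, MCM7 (4176) 2.78-fold and 2.67-fold, and MCM2 (4171) 2.29-fold and 2.16-fold, with adjusted p-values from 0.000285 to 0.00615 over these 4 genes. When the library labelled no Myc replicate 1 was left out, MCM2 lost its low Myc call (adjusted p = 0.0641). MCM5 (4174), a subunit of the same ring, passed in neither comparison on its brightest probe set. It read 1426, 1503, 1934 and 1839.7 with high Myc, 1701, 2086 and 1533 with low Myc, and 1174 and 1247 with no Myc. All 7 high and low Myc arrays were above both no Myc arrays, yet the differences of 0.46 ± 0.16 and 0.54 ± 0.17 missed the threshold (adjusted p = 0.0808 and 0.0588). Without low Myc replicate 3 the low Myc difference passed (0.64, adjusted p = 0.0351). With array weights in limma both differences passed (adjusted p = 0.0327 and 0.0466). The second MCM5 probe set was called with low Myc (0.61, adjusted p = 0.0471 over all probe sets). It was not called with high Myc (0.47, adjusted p = 0.0929). On the brightest probe set the 95% intervals were 0.088 to 0.83 and 0.15 to 0.93. They lay below the differences estimated for MCM2, MCM4, MCM6 and MCM7, while the low Myc difference of MCM3, 0.76, fell within the second, and differences between subunits were not tested.

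MCM3 (4172), also of the ring, was the member with the lowest p-value between high and low Myc. It read 2822, 2665, 2814 and 2898 with high Myc, 2255, 2421 and 2071 with low Myc, and 1192 and 1470.2 with no Myc. The 3 groups did not overlap anywhere: high Myc lay above low Myc, and low Myc above no Myc. The differences were 1.08 ± 0.11 for high over no Myc, 0.76 ± 0.12 for low over no Myc (adjusted p = 0.00029 and 0.00241) and 0.32 ± 0.10 for high over low Myc, the last with an unadjusted p of 0.0108 and an adjusted p of 0.125. MCM3 was the 1 member whose high Myc arrays all exceeded the low Myc arrays, where 8.06% of all genes did.

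CDT1 (81620), which loads the ring together with CDC6, did not pass in either comparison on its brightest probe set. That probe set read 642, 803, 954 and 876 with high Myc, 708, 836 and 1126 with low Myc, and 308 and 709 with no Myc. The 2 no Myc arrays differed more from each other than the groups did, and no Myc replicate 2 lay within the range of both other groups. The differences were 0.79 ± 0.32 and 0.90 ± 0.34 (adjusted p = 0.124 and 0.103), and without no Myc replicate 2 they were 1.39 and 1.50 (adjusted p = 0.0126 and 0.0143). The second CDT1 probe set was called, with 0.76 and 1.20 (adjusted p = 0.00891 and 0.00224 over all probe sets). ORC6 (23594), the smallest subunit of the origin complex, read 472, 447, 532 and 444 with high Myc, 648, 664 and 492 with low Myc, and 369 and 375 with no Myc. Low Myc was higher than no Myc by 0.68 ± 0.15 (adjusted p = 0.011), while high over no Myc was 0.34 ± 0.14 (adjusted p = 0.125) and high over low Myc was -0.34 ± 0.12 (unadjusted p = 0.0234, adjusted p = 0.194). The low Myc call of ORC6 was lost without either no Myc array (adjusted p = 0.0808 and 0.0571), and its high over no Myc difference passed without low Myc replicate 3 (adjusted p = 0.0391). The brightest probe sets of CDT1 and ORC6, and that of CHAF1A described below, are of the kind whose names end in _x_at, which can bind transcripts of other genes.

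Of the 6 helicase activation genes, 5 rose with high Myc and 5 with low Myc, with medians of 1.61 and 1.62. MCM10 (55388), a factor needed to start the helicase, read 551, 619.8, 643 and 551 with high Myc, 608, 763 and 378 with low Myc, and 145 and 134 with no Myc, a 4.23-fold and a 4.01-fold difference (adjusted p = 0.000393 and 0.001). CDC45 (8318), the helicase subunit that travels with the ring, read 368, 497, 509.5 and 491 with high Myc, 523, 701 and 419 with low Myc, and 140.4 and 227 with no Myc, with differences of 1.37 ± 0.25 and 1.59 ± 0.26. Both genes had every high and low Myc array above every no Myc array, although CDC45 lost its high over no Myc call, at an adjusted p of 0.0502, without the library labelled no Myc replicate 1.

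Of the 4 GINS subunits, which work as 1 complex, 3 rose in both comparisons; differences between subunits were not tested. GINS1 (9837) read 1026, 999.8, 1149 and 1039 with high Myc, 805, 1258 and 631 with low Myc, and 250.4 and 297 with no Myc, a 3.86-fold and a 3.16-fold rise. GINS2 (51659) read 1598, 1487, 2177 and 1841 with high Myc, 1508, 2006 and 1268 with low Myc, and 397 and 599 with no Myc, a 3.60-fold and a 3.21-fold rise. For both, adjusted p-values lay between 0.000475 and 0.00193. GINS3 (64785) read 402, 784, 647 and 523 with high Myc, 425, 454 and 545 with low Myc, and 202 and 293 with no Myc. Its differences of 1.23 ± 0.26 and 0.95 ± 0.27 passed (adjusted p = 0.00776 and 0.0384) but neither did without the library labelled no Myc replicate 1, at adjusted p-values of 0.101 and 0.301. The low Myc call of GINS3 was lost without 7 of the 9 single arrays.

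GINS4 (84296), the fourth subunit, passed in neither comparison. It read 142, 187, 187 and 185 with high Myc, 197, 213 and 272 with low Myc, and 104 and 187 with no Myc. No Myc replicate 2 was as high as the upper high Myc arrays, so those groups overlapped, whereas all 3 low Myc arrays lay above both no Myc arrays. The differences were 0.32 ± 0.24 (adjusted p = 0.463) and 0.69 ± 0.25 (adjusted p = 0.092), and without no Myc replicate 2 the low Myc difference was 1.12 (adjusted p = 0.0175). High Myc lay below low Myc on every array, as in 4.66% of all genes, with a difference of -0.37 and a 95% interval of -0.84 to 0.10 (adjusted p = 0.464).

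All 7 genes of the polymerases and primase rose in both comparisons with no Myc, with medians of 1.38 and 1.22. POLE2 (5427), the second subunit of the leading-strand polymerase epsilon, read 615, 658, 819.9 and 624 with high Myc, 599, 702 and 509.9 with low Myc, and 131 and 152 with no Myc. Its differences were 2.26 ± 0.16 (4.78-fold, adjusted p = 9.52e-05) and 2.08 ± 0.17 (4.24-fold, adjusted p = 0.00032). Only CDC6 of the 34 had greater differences in both comparisons. POLE (5426), the catalytic subunit of the same enzyme, read 566, 523, 535 and 525 with high Myc, 536, 517 and 475 with low Myc, and 249 and 329 with no Myc. Its rise was smaller, 1.88-fold and 1.78-fold (adjusted p = 0.000803 and 0.00234), and its replicates varied little within high and within low Myc.

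For polymerase delta, which copies the lagging strand, POLD1 (5424), the catalytic subunit, read 924, 865, 956 and 1049 with high Myc, 797, 1087 and 668 with low Myc, and 256 and 518 with no Myc. POLD2 (5425), its partner subunit, read 899, 1067, 1022 and 979.9 with high Myc, 816, 962 and 585 with low Myc, and 232 and 334 with no Myc. For both genes the high and low Myc arrays were apart from the no Myc arrays, at 2.60-fold and 2.29-fold for POLD1 and 3.55-fold and 2.77-fold for POLD2. Without the library labelled no Myc replicate 1, POLD1 lost both calls, at adjusted p-values of 0.0525 and 0.148, the no Myc array that remained being the higher one. Its low Myc call was also lost, narrowly, without low Myc replicate 2 (adjusted p = 0.05003). For polymerase alpha and primase, POLA1 (5422), the catalytic subunit, was 2.73-fold and 2.92-fold higher, PRIM1 (5557), the small primase subunit that makes the RNA primer, 2.12-fold and 2.33-fold, and POLA2 (23649), the accessory subunit, 1.63-fold and 2.06-fold. POLA2 read 530.2, 731, 669 and 682 with high Myc, 838, 971 and 671 with low Myc, and 387 and 407 with no Myc, and its high over no Myc call (adjusted p = 0.0144) was lost without either no Myc array (adjusted p = 0.109 and 0.068).

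The sliding clamp and the 4 clamp loader subunits among the 34 genes rose in both comparisons, with medians of 1.52 and 1.49. PCNA (5111), the ring that holds polymerases to DNA, read 4605, 5139.5, 5303 and 4606 with high Myc, 6044, 6125 and 4584 with low Myc, and 2572 and 2160.2 with no Myc. Its high and low Myc arrays all exceeded the no Myc arrays, with mean differences of 2.08-fold and 2.35-fold (adjusted p = 0.000884 and 0.00101). RFC3 (5983), a loader subunit, read 2452, 2761, 3320.3 and 2695 with high Myc, 1908, 2858 and 1516 with low Myc, and 689 and 749 with no Myc. It was 3.89-fold and 2.82-fold higher than in no Myc, and its high over low Myc difference of 0.46 ± 0.20 was the largest of the 34 (unadjusted p = 0.0455, adjusted p = 0.289), with overlapping groups. RFC5 (5985) was 3.37-fold and 3.07-fold higher, RFC4 (5984) 2.86-fold and 3.43-fold, and RFC2 (5982) 2.31-fold and 2.09-fold.

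Both genes of Okazaki fragment joining rose. FEN1 (2237), which cuts the displaced flap, read 1729.8, 1784, 2244 and 1742 with high Myc, 1969.9, 2683 and 1472 with low Myc, and 556 and 768 with no Myc, a 2.85-fold and a 3.03-fold difference (adjusted p = 0.00163 and 0.00237). LIG1 (3978), which seals the nick, rose by less, 1.71-fold and 1.66-fold (adjusted p = 0.00456 and 0.0101), and lost both calls, at adjusted p-values of 0.0502 and 0.0914, once the library labelled no Myc replicate 1 was left out.

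Of the 2 RPA subunits among the 34 genes, parts of the complex that coats single-stranded DNA, RPA3 passed and RPA1 did not, and the difference between them was not tested. RPA1 (6117), the large subunit, read 2198, 2015, 2129 and 1860.2 with high Myc, 2283, 2137 and 1890.5 with low Myc, and 1690.0 and 1714 with no Myc. Its high and low Myc arrays all lay above the no Myc arrays, but the mean differences were only 0.27 ± 0.11 and 0.30 ± 0.12 (adjusted p = 0.133 and 0.113). The low Myc difference passed without low Myc replicate 3 (0.38, adjusted p = 0.0469). RPA3 (6119), the small subunit, read 1453, 1476, 1455 and 1775 with high Myc, 2015, 1659 and 1559 with low Myc, and 743 and 963 with no Myc, a 1.81-fold and a 2.05-fold rise (adjusted p = 0.0032 and 0.00238). A second RPA1 probe set was called, at 0.38 and 0.33 (adjusted p = 0.017 and 0.046 over all probe sets), so a small rise of RPA1 depended on the probe set.

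Both chromatin genes rose. UHRF1 (29128), which brings maintenance DNA methylation to newly copied DNA, read 1538, 1962, 2089 and 1661 with high Myc, 1679, 2217 and 1513 with low Myc, and 419 and 590.1 with no Myc. The groups were far apart, at 3.62-fold and 3.58-fold (adjusted p = 0.000344 and 0.000841), and high and low Myc differed by 0.02 with a 95% interval of -0.39 to 0.42. CHAF1A (10036), the large subunit of the histone chaperone CAF-1, read 429, 461, 517 and 512 with high Myc, 447, 494 and 382 with low Myc, and 203 and 219 with no Myc, a 2.27-fold and a 2.08-fold rise (adjusted p = 0.000342 and 0.0011).

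At the level of single probe sets, 45 of the 64 were higher with high Myc, where 9.24% of all probe sets were. With low Myc 46 were higher, where 6.73% of all were, and 0 were lower in either comparison. Between high and low Myc 0 were called, where 1.57% of all were. There 6 had an unadjusted p under 0.05, a count not made over all probe sets. Counted by gene, 31 and 33 of the 34 had at least 1 probe set that rose. The probe sets of a gene often disagreed: of 17 genes with several, all of them rose in 6 genes with high Myc and in 5 with low Myc. These counts by gene were not made over all genes of the array. A split at a mean log2 intensity of 7.5, chosen after the data were seen, was made for the 64 probe sets only. Of the 50 brighter probe sets 44 and 45 rose, but only 1 of the 14 dimmer ones, that of ORC1. GINS2 is an example, with 1.85 on its bright probe set and -0.072 and 0.11 on its dim ones for high over no Myc. POLA2 is another, with 0.71 on its bright probe set and 0.12 and 0.023 on its dim ones.

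The individual arrays moved as blocks across these genes. Within low Myc, replicate 3 was the lowest array for 31 of 34 members, against 38.4% of all genes, and the exceptions, CDT1, GINS3 and GINS4, were highest there. Low Myc replicate 2 was the highest for 27. Within high Myc, replicate 1 was the lowest array for 25 members, against 28.8% of all genes. High Myc replicate 3 was the lowest for 0 members, against 23.5% of all genes, and the highest for 18. How often an array was the highest was not counted over all genes. The library labelled no Myc replicate 1 was below no Myc replicate 2 for 29 of 34 members, by a median of 0.24 log2 units, against 48.3% of all genes, although it had the higher MYC value. Low Myc replicates 2, 1 and 3 stood in that falling order both for MYC and for the member median. Within high Myc the orders differed, and a relation to MYC was not tested. The member medians were 9.73, 9.86, 9.95 and 9.98 log2 units on the high Myc arrays, 9.69, 10.005 and 9.39 on the low Myc arrays, and 8.33 and 8.61 on the no Myc arrays, so every high and low Myc array lay above both no Myc arrays by more than the spread within any group. The median over all genes lay between 6.98 and 7.06 on all arrays.

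**Figure D4:**
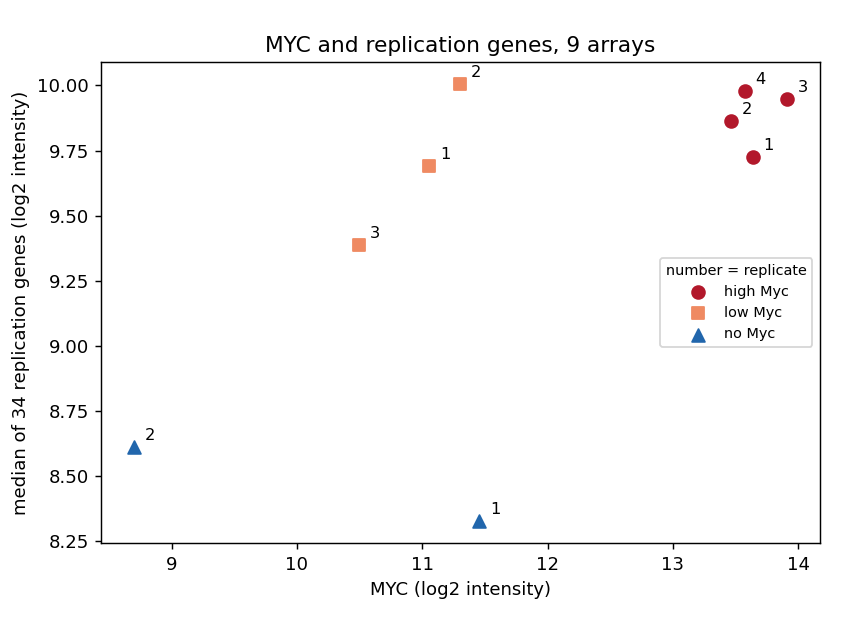
Each point is 1 array, with the log2 intensity of MYC on the horizontal axis and the median log2 intensity of the 34 replication genes on the vertical axis. The high Myc arrays (9.73 to 9.98) and low Myc arrays (9.39 to 10.005) overlap in height, and both no Myc arrays (8.33 and 8.61) lie below, including the 1 with more MYC than low Myc.

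**Figure D5:**
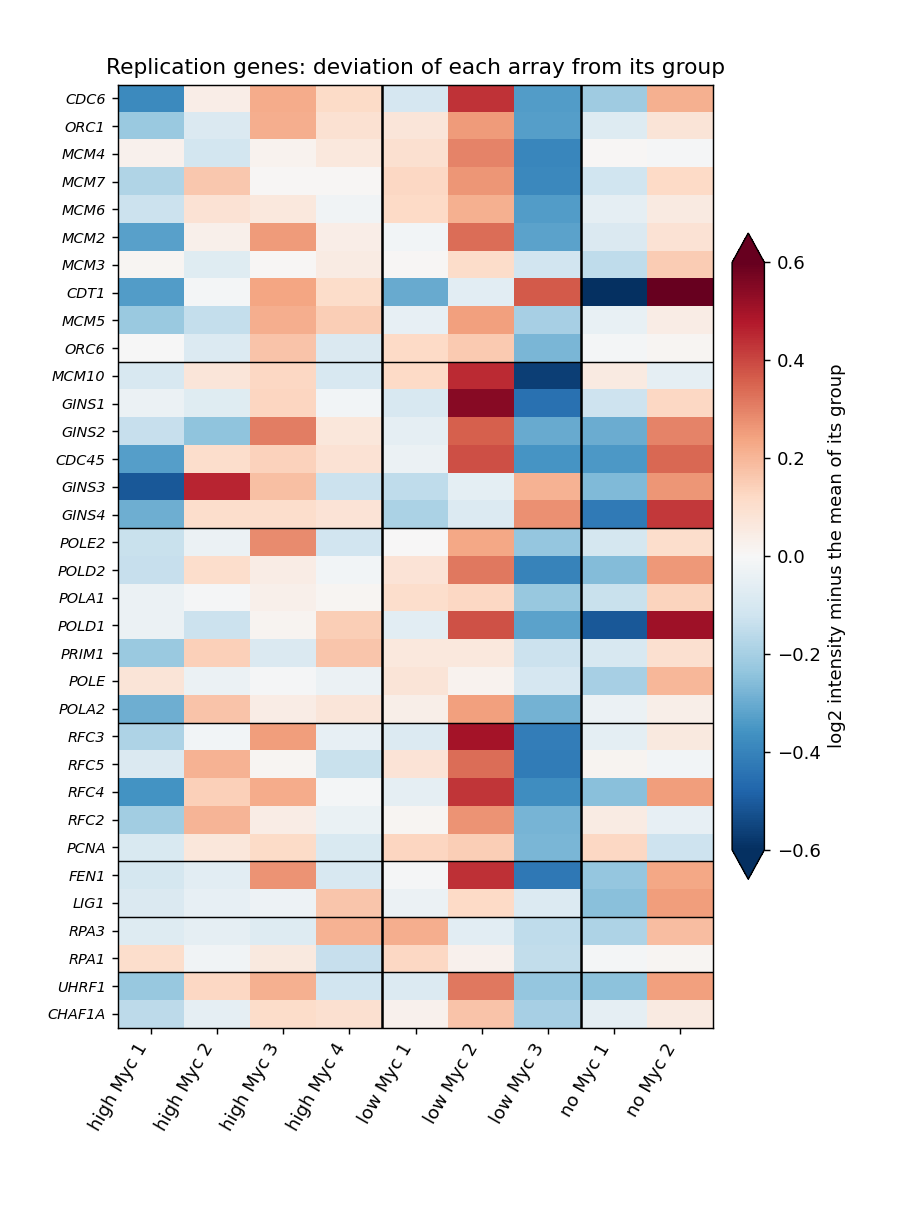
Colours give each array's log2 intensity minus the mean of its own group, for the 34 genes (rows) and 9 arrays (columns), with lines between groups and roles. The column of low Myc replicate 3 is blue for 31 genes and that of low Myc replicate 2 mostly red.

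Leaving out the library labelled no Myc replicate 1 left a single no Myc array. The median differences of the members against it were 1.22 with high Myc and 1.22 with low Myc. The GAPDH control probe sets, whose 3′ minus 5′ log2 difference grows with RNA degradation, gave 0.0094 to 0.24 on the 7 high and low Myc arrays, against 0.25 and 0.42 in the no Myc group. The same difference of ACTB did not separate the groups: it was -0.074 to 0.19 on those 7 arrays, against 0.0039 and -0.011 for no Myc. B-cell markers were present throughout, with MS4A1 at a mean log2 of 12.2, 12.1 and 13.3 and CD79A at 11.1, 10.7 and 12.7 in high, low and no Myc. Their summed intensity was 8620 to 15555 with high Myc, 10724 to 12193 with low Myc and 23499 to 31498 with no Myc, and 7 of 9 measured markers fell with high Myc against no Myc, while 5 fell and 1 rose with low Myc. Myeloid markers summed to 516 to 601 with high Myc, 478 to 547 with low Myc and 1797 to 2659 with no Myc, and 2 of 10, ITGAM and LYZ, were lower in both the high and the low Myc group. Markers of T and NK cells summed to 1477 to 1776, 1497 to 1728 and 1746 to 1978 in the same order, and CD2 alone of 14 was lower, in high Myc. The part of RNA quality or of these markers in the results was not tested.

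Other genes of DNA replication, taken from a list, were mostly higher in high and low Myc too. Of 49 listed, 47 were measured, and 37 rose and 1 fell with high Myc against no Myc (median 0.80), while 33 rose and 2, POLD4 and RNASEH2B, fell with low Myc (median 0.79). RNASEH2B, a subunit of the enzyme that removes RNA from DNA, differed by -0.93 (adjusted p = 0.00925), and its call was lost without no Myc replicate 2 (adjusted p = 0.0746). DBF4, the activator of the CDC7 kinase that fires origins, rose 5.32-fold with high Myc, TIPIN, a fork protection factor, 5.17-fold, and GMNN, the inhibitor of CDT1, 4.42-fold. With low Myc, DBF4 and TIPIN rose by 2.24 each on the log2 scale and DSCC1, a subunit of an alternative clamp loader, 4.49-fold. E2F letters stood in 19 of 40 of their matched windows (47.5%). Genes of mitosis, listed for comparison, also rose: 32 of 34 with high Myc (median 1.43) and 33 of 34 with low Myc (median 1.44), and 0 were called between high and low Myc, nor had any an unadjusted p under 0.05 in limma (median -0.01).

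POLD4, a small accessory subunit of polymerase delta, went the opposite way to its partners POLD1 and POLD2. It read 415, 348, 354 and 488 with high Myc, 439, 553 and 488 with low Myc, and 1922 and 1735 with no Myc. No high or low Myc array came near the no Myc arrays, and POLD4 was 4.60-fold lower with high Myc (log2 difference -2.20 ± 0.16, adjusted p = 9.52e-05) and 3.72-fold lower with low Myc (-1.89 ± 0.17, adjusted p = 0.00033). POLE3, a histone-fold subunit of polymerase epsilon, read 2958, 1627, 2659.8 and 2625 with high Myc, 1006, 1364 and 851 with low Myc, and 837 and 890.4 with no Myc. It was the 1 listed gene higher in high than in low Myc, by 1.19 ± 0.22 (2.29-fold, adjusted p = 0.0268), and low over no Myc was 0.29 (adjusted p = 0.625). ASF1B, a histone chaperone that hands histones to CAF-1, was the 1 listed gene lower in high than in low Myc. It read 745, 814, 634 and 811 with high Myc, 1143, 1287 and 1078 with low Myc, and 507 and 561 with no Myc, a difference of -0.64 ± 0.11 between high and low Myc (adjusted p = 0.0231). The POLE3 call between high and low Myc was lost without any single array other than high Myc replicate 2 or low Myc replicate 2, with adjusted p-values up to 0.0968. That of ASF1B was lost when replicate 1, 3 or 4 of high Myc, or replicate 1 of low Myc, was left out, with adjusted p-values up to 0.0737.

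The remaining subunits of the origin recognition complex, named after their values were seen, passed in 1 or both comparisons. Differences between them were not tested. ORC5 rose in both comparisons (1.67 and 1.33, adjusted p = 0.00121 and 0.00679). ORC2 passed with high Myc (1.06, adjusted p = 0.016) and not with low Myc (0.78, adjusted p = 0.084), and ORC3 likewise (0.57 and 0.32, adjusted p = 0.039 and 0.315). ORC4 passed with low Myc (1.58, adjusted p = 0.0137) and not with high Myc (0.57, adjusted p = 0.33). The low Myc difference of ORC2 passed without low Myc replicate 3 (1.08, adjusted p = 0.00375), with array weights (adjusted p = 0.0166) and after repeated quantile normalization (adjusted p = 0.0272). The calls of ORC2, ORC3 and ORC4 were lost without either no Myc array, and that of ORC5 with low Myc did not hold (adjusted p = 0.0778) when only no Myc replicate 2 stood for its group.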

How the data were processed

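Total RNA of P493-6 cells was labelled with biotin and hybridised to 9 single-colour arrays, per the labels. The authors deposited 1 table of intensity values on a linear scale, made with RMA per the submitters' processing notes; its version is not given in the sources used here. The method subtracts background, equalises array distributions and summarises probes per probe set. All analysis used the log2 of these deposited intensities. Of 54675 probe sets, 41097 had 1 gene symbol, 1801 several and 11777 none; 41043 symbols were updated through Entrez identifiers. A gene was represented by its probe set with the highest mean log2 value.

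All 9 arrays were fitted together with limma 3.58.1 in R 4.3.3 (6 residual degrees of freedom, no covariates). Tests were two-sided, with Benjamini-Hochberg adjustment over all 19775 genes, or over all 54675 probe sets, within a comparison, and calls at an adjusted p under 0.05. The procedure was tested on simulated data. Errors of differences are SE. The number of arrays limits the precision, and 0 columns of the table were left unused.

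The members and the lists were chosen with earlier results of these data known. Any member could be named; of other replication genes, up to 6 called genes per direction and comparison, by size. Alternatives were repeated quantile normalization, median centring, a filter at a mean log2 of 5, the median over probe sets, array weights, a trended robust prior, a block for the replicate number, fits of only 2 groups, a threshold of 0.01, and each array left out. Promoter windows were RefSeq's, and figures used Python 3.11.15 with matplotlib 3.10.9.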

Additional observations from a re-analysis of the deposited data

Results flagged for a closer look

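Among the 4 high Myc arrays, 4 of the 35 genes checked, the members and MYC, had 1 array far from the other 3 by Dixon's criterion at 95%, which chance alone meets in about 1 group in 20. CDC45 read 8.52 log2 units on high Myc replicate 1, against 8.94 to 8.99 on the other 3. GINS4 read 7.15 on the same array, against 7.53 to 7.55. FEN1 read 11.13 on high Myc replicate 3, against 10.76 to 10.80. RPA3 read 10.79 on high Myc replicate 4, against 10.51 to 10.53. The low Myc and no Myc groups were too small for this check.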

How the results depend on the processing

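With 1 array left out at a time, 24 to 30 members rose with high Myc and 25 to 31 with low Myc against no Myc, and 0 fell. The lowest counts came without the library labelled no Myc replicate 1, where CDC45, GINS3, LIG1, POLA2 and POLD1 lost the high Myc call and GINS3, LIG1, MCM2, ORC6 and POLD1 the low Myc call. Fits without 1 of the no Myc arrays rest on a single no Myc array. With 1 high or low Myc array left out, 29 to 30 members rose with high Myc, beside 2401 to 3022 of 19775 genes. Low Myc gave 28 to 31 members in those fits, beside 1563 to 2840 genes. With any 1 of the arrays left out, the medians of the members ranged over 1.22 to 1.55, 1.22 to 1.52 and, for high over low Myc, -0.08 to 0.18. Called probe sets ranged over 32 to 46 and 33 to 46, and between high and low Myc stayed at 0. Between high and low Myc the count of members higher was 0 to 1. It was 1, RFC3 (0.71, adjusted p = 0.0402), without low Myc replicate 2. After repeated quantile normalization the count of members lower was 1, ORC6 (-0.42, adjusted p = 0.0273). With the median over probe sets, GINS2 turned to -0.072 with high Myc and -0.089 with low Myc against no Myc, and POLA2 lost both calls. In each comparison with no Myc, 23 members kept an adjusted p under 0.05 in every alternative run. Leaving out low Myc replicate 3 and the library labelled no Myc replicate 1 together, an alternative chosen after seeing the data, gave 27, 28 and 0 called members. At a threshold of 0.01 the counts were 28, 26 and 0, where 1964 and 1199 of all genes rose against no Myc.

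Same-numbered arrays did not all deviate together. The correlations of their deviations were 0.25, 0.45 and 0.47 for the 3 pairs of replicate 1, 0.030, 0.067 and 0.10 for those of replicate 2 and -0.31 for the 1 pair of replicate 3, so the numbers were not taken to pair the samples. With the replicate number as a block, 29, 30 and 0 members were called, with medians of 1.39, 1.39 and 0.06. Of all genes, 2583 and 2027 rose against no Myc in that fit. No member's call changed with the block, but calls of other genes did. MYC (2.72, adjusted p = 0.119) and POLE3 (1.15, adjusted p = 0.145) no longer passed between high and low Myc. Neither did ORC3 (0.59, adjusted p = 0.0632) between high and no Myc. Further genes listed as other replication genes also lost calls against no Myc, with high Myc and with low Myc. The count over all genes between high and low Myc was 712, and 154 with the block, 406 with only the 2 groups compared and 143 at a threshold of 0.01.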
